A study of Mus musculus with 9 samples.

Results

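The genes described here are 42 imprinted genes of the mouse, listed by symbol with Rasgrf1 first, in testes of wild-type mice and of mice with the R264W substitution in Piwil4. Of the 42, 39 had a row in the table of 22337 genes and 3 (H19, Meg3 and Kcnq1ot1, all noncoding RNAs) had none and were not analysed here. The members were taken by gene symbol, with no threshold on their values. RNA from whole testes at 3 weeks of age was sequenced in 9 samples, 3 of each genotype: wild-type (labelled WT-WT), heterozygous knock-in (Piwil4 WT/R264W, labelled WT-KI) and homozygous knock-in (Piwil4 R264W/R264W, labelled KI-KI). The knock-in allele was made with CRISPR-Cas9 in C57BL/6 zygotes and changes 1 residue of PIWIL4 in every cell of the animal. Wild-type mice are the controls and received no other treatment according to the labels. The labels number the replicates of a genotype and do not say whether they shared a litter, so the p-values measure the spread between these samples.

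Imprinted genes are expressed wholly or mainly from 1 parental allele, in some or all tissues. The choice is set by DNA methylation laid down at an imprinting control region in the egg or in the developing male germ cell. Allelic expression was classed here as tissue-dependent for Gnas, Cd81, H13, Commd1, Trappc9, Tssc4, Blcap, Inpp5f, Ddc and Kcnk9, and as mainly maternal for Grb10. Most control regions are methylated in the maternal germline. Rasgrf1, Igf2-H19 and Dlk1-Meg3 are the classical domains methylated in the paternal germline, in prospermatogonia before birth. PIWIL4 (MIWI2) is the nuclear PIWI protein of those cells, where piRNAs guide it to transposons and DNA methylation follows, and the imprint of Rasgrf1 is the one known to depend on the piRNA pathway. RASGRF1 itself is an exchange factor that activates Ras. A table of total RNA per gene does not separate the parental alleles and holds no methylation, so the values below are levels of RNA from both alleles together.

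Library totals ran from 17.96 to 24.28 M estimated counts. Levels of a gene across testes are given as CPM, its count scaled by the library total after TMM normalisation. A count of 0 still allows 3 counts, which make 0.124 to 0.167 CPM depending on the library, counting error only. No pair of libraries was identical, and the lowest correlation of log2 CPM between any pair was 0.965 across genes. Testes of this age are still in the first wave of spermatogenesis. How far that wave had come was measured as a spermatid score, the average log2 CPM over 20 genes of round spermatids, all of which were in the table. Some of these genes were at 0 CPM in the testes with the lowest scores. These were Spem1 in testes 3 of wild-type and Piwil4 WT/R264W, Tnp1 in the former and Prm2 in the latter. The low end of the score, and fold changes over its range, thus depend in part on the prior count of 1 used for log2 CPM. From lowest to highest the score was 1.64 in Piwil4 WT/R264W testis 3, 2.11 in wild-type testis 3, 2.97 in Piwil4 R264W/R264W testis 1, 3.18 in wild-type testis 2, 3.99 in Piwil4 WT/R264W testis 2, 4.19 in Piwil4 R264W/R264W testis 2, 5.34 in Piwil4 WT/R264W testis 1, 6.08 in Piwil4 R264W/R264W testis 3 and 6.26 in wild-type testis 1. The testes formed a graded series, with no gap over 1.15 in a range of 4.62, and the genotypes overlapped along it (mean scores of 3.85 ± 2.16, 3.66 ± 1.87 and 4.41 ± 1.57, SD, n = 3, in the order wild-type, WT/R264W, R264W/R264W). The labels give no stage, so no testis was put in a stage group and each gene was described along the score. Piwil4 itself was scarce at 1.77, 1.67 and 1.59 CPM in wild-type testes 1, 2 and 3, at 2.06, 1.12 and 2.10 CPM in the heterozygous testes and at 1.39, 1.18 and 1.03 CPM in Piwil4 R264W/R264W testes. The level of Piwil4 does not check the labels, because a substitution leaves the transcript in place.

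Promoter sequences are given first for 4 members. Rasgrf1 and Mcts2 had higher levels in testes with a higher spermatid score, and Zim1 was lower in those testes. The fourth is Ascl2, whose Piwil4 R264W/R264W values lay apart from the others in CPM. They overlapped wild-type in FPKM, and no genotype difference of Ascl2 passed the test (adjusted p of 0.948 or more in edgeR). Each sequence is the 250 bases before a RefSeq transcription start (build GRCm38.p6), written 5′ to 3′ on the strand of the gene. Every CpG is in capitals, since CpG is where DNA methylation is placed. The windows were set by transcription starts and not by imprinting control regions, and methylation in them was not measured.
Rasgrf1 (chr9:89909525-89909774, plus strand): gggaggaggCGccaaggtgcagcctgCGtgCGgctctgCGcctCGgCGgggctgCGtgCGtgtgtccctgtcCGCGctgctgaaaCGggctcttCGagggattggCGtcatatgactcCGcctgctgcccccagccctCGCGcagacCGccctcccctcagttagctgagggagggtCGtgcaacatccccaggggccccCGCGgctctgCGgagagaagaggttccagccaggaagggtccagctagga
Mcts2 (chr2:152686898-152687147, plus strand): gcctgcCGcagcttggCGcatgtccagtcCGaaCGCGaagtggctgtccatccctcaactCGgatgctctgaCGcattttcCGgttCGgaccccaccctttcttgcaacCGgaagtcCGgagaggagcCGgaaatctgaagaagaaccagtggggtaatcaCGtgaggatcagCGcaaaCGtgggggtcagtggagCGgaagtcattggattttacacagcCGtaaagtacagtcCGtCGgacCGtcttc
Zim1 (chr7:6696433-6696682, minus strand): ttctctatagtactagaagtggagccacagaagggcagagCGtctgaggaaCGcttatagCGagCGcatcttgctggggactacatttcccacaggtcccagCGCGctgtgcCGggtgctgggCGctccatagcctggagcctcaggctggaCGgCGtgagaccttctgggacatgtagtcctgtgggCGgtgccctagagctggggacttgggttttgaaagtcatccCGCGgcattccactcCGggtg
Ascl2 (chr7:142969265-142969514, minus strand): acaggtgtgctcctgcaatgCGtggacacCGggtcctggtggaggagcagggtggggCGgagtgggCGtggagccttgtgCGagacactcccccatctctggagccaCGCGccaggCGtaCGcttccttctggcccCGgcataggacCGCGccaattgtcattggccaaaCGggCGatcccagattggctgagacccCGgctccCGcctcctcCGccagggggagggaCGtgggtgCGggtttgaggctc
The Rasgrf1 window held 21 CpGs, and 16.3% of all 32851 windows of this length held as many or more. Mcts2 had 20 CpGs, Ascl2 19 and Zim1 14. Windows were given for 31 members, some with several starts, and their 47 windows had a median of 12 CpGs against 6 over all windows. At the other end, the window of Slc22a18 held 0 CpGs. Motifs of factors known from male germ cells were searched on both strands. The cAMP response element TGACGTCA, bound by CREM in spermatids, was in 1 member window, that of Peg3, and in 1.55% of all windows. Its shorter form TGACG, which that element contains, was in 13 of the 47 member windows (27.7%) and in 17.8% of all, with 1 match in the window of Rasgrf1 and 1 in that of Mcts2. The MYB motif AACNGNC, bound by the meiotic factor MYBL1, was in 10 member windows (21.3%) and in 27.7% of all, with 1 match in the window of Rasgrf1 and 1 in that of Ascl2. These matches describe letters only, and several windows of a gene overlap.

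The 39 genes covered a wide span of levels. Levels between genes are compared as FPKM, read fragments scaled to gene length and library size. The median over the 9 testes was at least 10 FPKM for 10 members, between 1 and 10 for 16 and under 1 for 13. Among all genes of the table these classes held 31.5%, 25.7% and 42.8%. Gnas, which encodes the stimulatory G protein alpha subunit, had the highest level, from 83.5 to 131 FPKM with a median of 118. Cd81, a tetraspanin of the cell membrane, followed at 35.6 to 56.7 FPKM, then the signal peptide peptidase gene H13 at 33.2 to 40.3 and Commd1, a regulator of copper and NF-kappaB, at 32.9 to 42.7. The ranges of these last 3 genes overlapped. Rasgrf1 was low, with a median of 0.49 FPKM and a range of 0.18 to 1.3. Its counts were nevertheless above the floor in every library, from 14 to 126, and no other gene of the table overlaps it in the annotation.

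**Figure D1:**
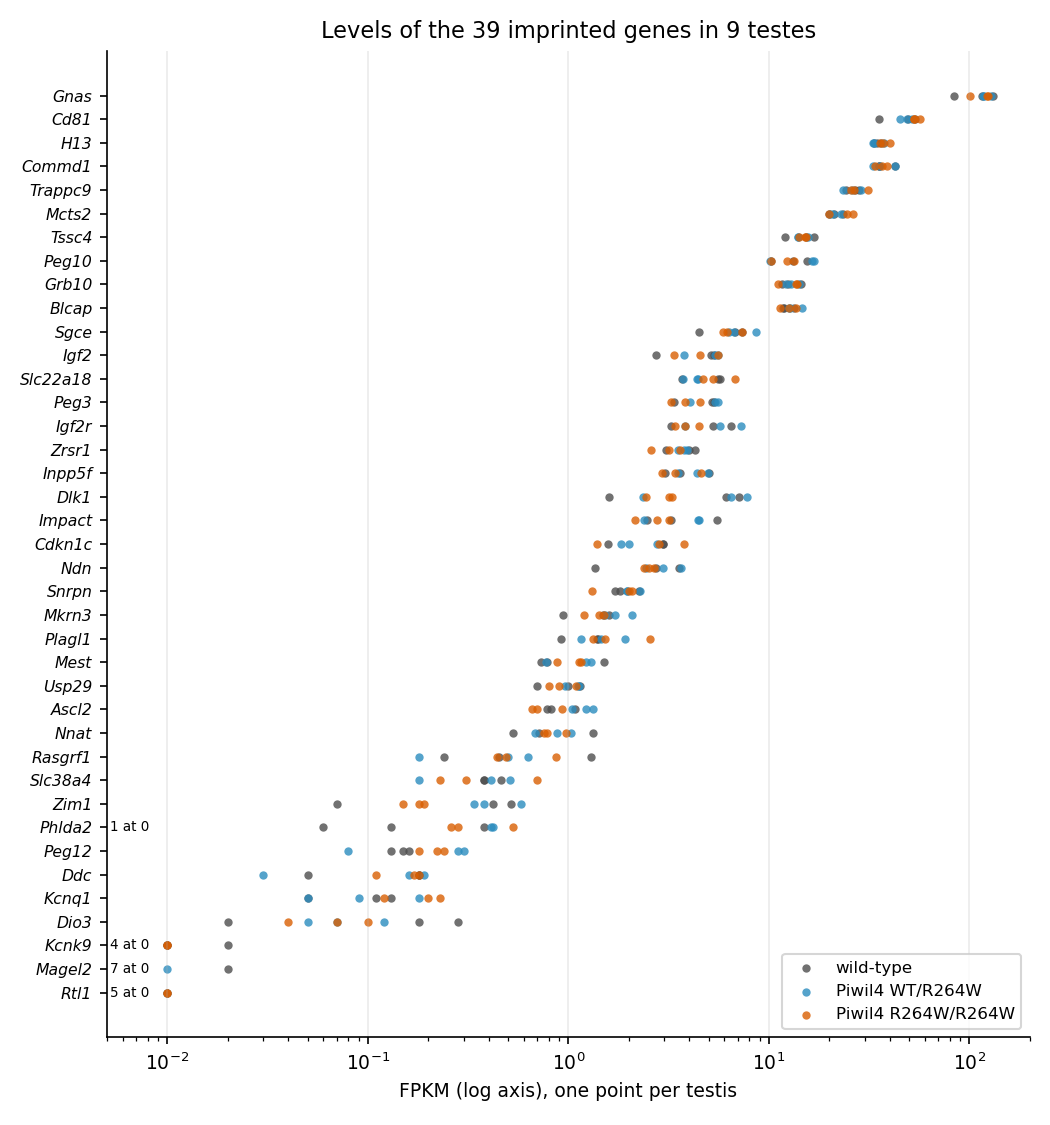
FPKM of the 39 imprinted genes on a log axis, one point per testis and coloured by genotype, ordered by the median; the text at the left edge gives how many testes were listed at 0. Gnas has the highest median, 118 FPKM, Rasgrf1 lies among the 13 members with a median under 1, and Rtl1, Magel2 and Kcnk9 are near or at 0.

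Several members were barely detected. Magel2, a ubiquitin ligase regulator of the Prader-Willi domain, had 0 counts in 7 of 9 testes and at most 2. Rtl1, a retrotransposon-derived gene needed in the placenta, had 0 counts in 5 testes, and the potassium channel gene Kcnk9 had 0 counts in 3. Ddc, Dio3 and Phlda2 had at most 12 counts in any testis. After the filter on low counts, 33 of the 39 entered the fit of all 9 testes, 32 the comparison of Piwil4 R264W/R264W with wild-type, 33 that with Piwil4 WT/R264W and 31 that of Piwil4 WT/R264W with wild-type. Those 6 genes (Rtl1, Dio3, Magel2, Ddc, Phlda2 and Kcnk9) were filtered out of every fit, and Kcnq1 and Peg12 out of some.

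Rasgrf1 was measured in every testis. Its level was 5.86, 1.86 and 1.01 CPM in wild-type testes 1, 2 and 3, 2.20, 2.12 and 0.735 CPM in Piwil4 WT/R264W testes 1, 2 and 3, and 1.61, 1.83 and 3.89 CPM in Piwil4 R264W/R264W testes 1, 2 and 3. The 3 genotypes overlapped, and the highest and the lowest testis of the series differed 7.97-fold. Ordered by the spermatid score from lowest to highest, the CPM of Rasgrf1 was 0.735, 1.01, 1.61, 1.86, 2.12, 1.83, 2.20, 3.89 and 5.86. The rise was broken at Piwil4 R264W/R264W testis 2, with 1.83 CPM. Wild-type testis 1 and Piwil4 R264W/R264W testis 3, the pair with the highest scores, had the highest CPM, and Piwil4 WT/R264W testis 3, with the lowest score, had the lowest.

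**Figure D2:**
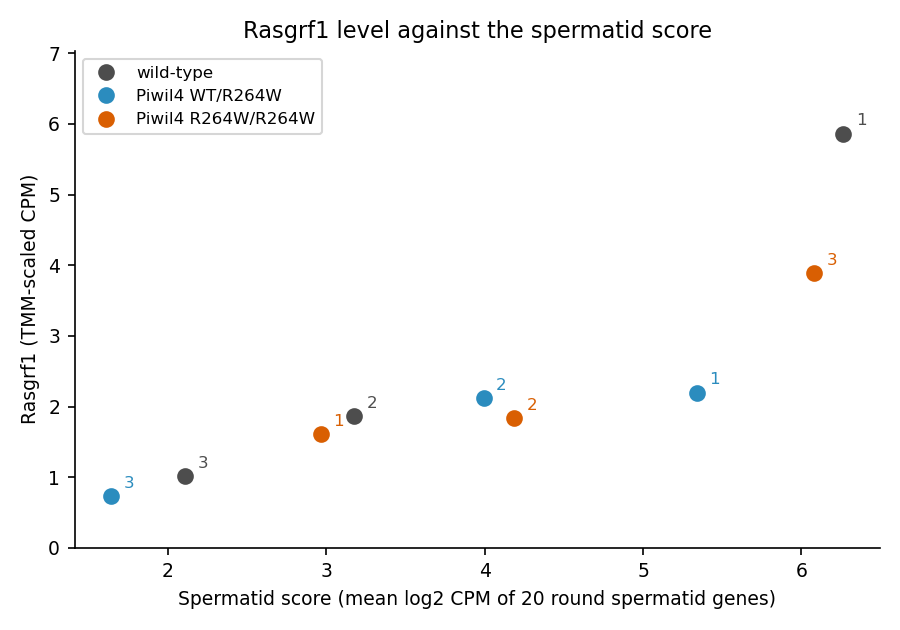
Rasgrf1 level in TMM-scaled CPM against the spermatid score (average log2 CPM over 20 spermatid genes), one point per testis, coloured by genotype and numbered by replicate. The level climbs from 0.735 CPM at a score of 1.64 to 5.86 CPM at a score of 6.26, and the colours are mixed along the series.

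In a fit of all 9 testes with genotype and score as terms, Rasgrf1 rose with the score. The slope was 0.50 log2 CPM per unit of score (SE 0.0704, 95% interval 0.35 to 0.66, edgeR quasi-likelihood test, adjusted p = 0.000147), or 5.02-fold over the range of scores. It was higher in the testis with the highest score than in the testis with the lowest in 3 of 3 genotypes, by 2.48 on the log2 scale in wild-type, 1.52 in Piwil4 WT/R264W and 1.25 in Piwil4 R264W/R264W. Of all genes tested, 94.7% had a lower slope and 6.35% a smaller p. The slope lay between 0.45 and 0.54 when each testis was left out in turn, with an adjusted p of at most 0.0141. It was 0.40 with an adjusted p of 0.142 without Piwil4 WT/R264W testis 3 and wild-type testis 1, the pair farthest from the median score. A Sertoli cell score with its sign reversed, higher where Sertoli genes are lower, was also used in place of the spermatid score. On it the adjusted p of Rasgrf1 was 0.0710 in edgeR, and 0 of all 15771 genes tested were called. In whole testes, fewer cells of a type and less RNA per cell cannot be told apart, for Rasgrf1 and for the other genes below.

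Genotype was then compared directly for Rasgrf1. The mean was 2.91 ± 2.59 CPM in wild-type, 1.68 ± 0.822 in Piwil4 WT/R264W and 2.44 ± 1.26 in Piwil4 R264W/R264W testes (SD, n = 3). The log2 fold change was -0.26 for Piwil4 R264W/R264W against wild-type (95% interval -1.92 to 1.39), 0.52 against Piwil4 WT/R264W (-0.70 to 1.75) and -0.79 for Piwil4 WT/R264W against wild-type (-2.49 to 0.90). None of the 3 differences exceeded the spread between testes, with adjusted p of 0.9998, 0.948 and 0.9998 in edgeR and exact two-sided permutation p of 1, 0.6 and 0.6, where 3 testes against 3 allow no p under 0.1. The intervals are wide and admit differences of severalfold in either direction. Wild-type testis 1 set the sign of both comparisons with wild-type, which became 0.75 and 0.23 without it. With the score as a covariate the 3 values were -0.33, 0.24 and -0.50, with unadjusted p of 0.213, 0.430 and 0.119 in edgeR.

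The other domains methylated in the paternal germline hold growth regulators. Igf2, the fetal growth factor, was at 11.4, 19.3 and 18.5 CPM in wild-type testes 1 to 3, at 20.7, 14.7 and 20.4 CPM in the heterozygous testes and at 18.6, 13.1 and 14.4 CPM in the homozygous testes. Dlk1, a Notch-related growth regulator of fetal Leydig and other progenitor cells, was at 2.93, 10.8 and 11.3 CPM, at 11.4, 4.36 and 10.4 CPM and at 5.81, 4.88 and 4.23 CPM in the same order. Wild-type testis 1 was the lowest for both genes, and all genotypes overlapped. The fold changes of Igf2 (log2 between -0.27 and 0.18) and of Dlk1 (between -0.81 and 0.06) did not pass the test in any genotype comparison, with adjusted p of 0.948 or more in edgeR.

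Both genes had a negative slope value on the score. The slope was -0.11 for Igf2 (SE 0.0465, adjusted p = 0.114) and -0.22 for Dlk1 (SE 0.101, adjusted p = 0.135, edgeR), and neither passed the test. Among the 3 domains, then, only the Rasgrf1 slope was called by that test, and the differences between the genes' slopes were not tested. The slope of Dlk1 depended on the testes and on the scale. It was -0.40 (adjusted p = 0.00104, edgeR) without Piwil4 WT/R264W testis 1 and -0.049 without wild-type testis 1, and 0.037 without the pair of testes farthest from the median score. With limma on log2(FPKM + 0.1) it was -0.31 (adjusted p = 0.04995), and on a pachytene spermatocyte score the slope was also called as falling (adjusted p = 0.0378, edgeR). The remaining coding genes of the Dlk1-Meg3 domain were near the floor. Dio3, which inactivates thyroid hormone, had 1, 7 and 12 counts in wild-type, 4, 2 and 2 in Piwil4 WT/R264W and 3, 5 and 1 in Piwil4 R264W/R264W testes 1 to 3. Rtl1 had 1, 0 and 0, 2, 0 and 0, and 1, 0 and 1 counts. At this depth no difference was detectable for either.

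Along the first wave, the imprinted genes moved in both directions. Of 33 members tested, 3 rose with the spermatid score (Rasgrf1, Mcts2 and Trappc9) and 3 fell (Zim1, Sgce and Gnas) at an adjusted p under 0.05 in edgeR. Over all 15771 genes tested, 17.4% rose and 8.12% fell, and no difference between these shares and the members' was tested. The median slope was -0.044 over the members and -0.013 over all genes, with a negative value in 24 of the 33 members and in 8723 of all genes. The counts depend on scaling and on single testes. With libraries scaled by their totals only, 1 member rose and 5 fell, against 3 and 3 with TMM scaling.

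**Figure D3:**
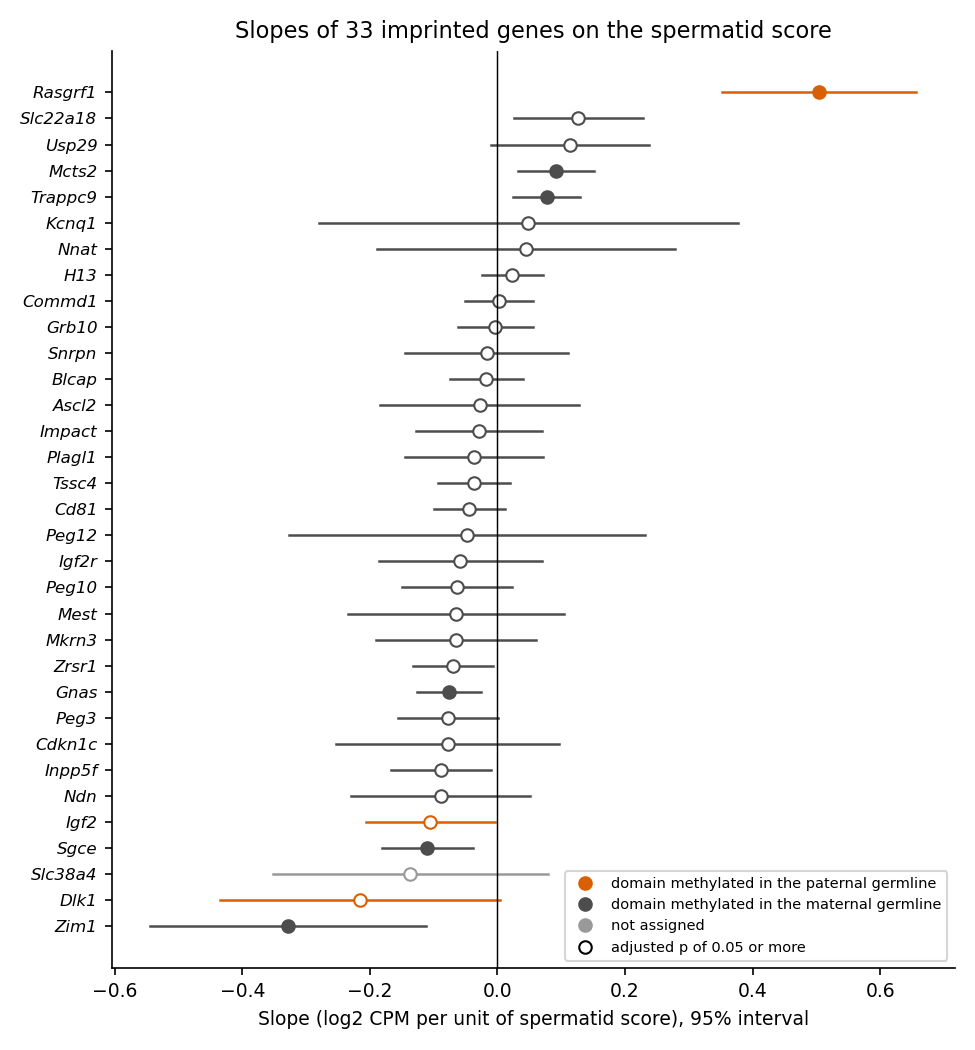
Slopes of the 33 tested members on the spermatid score, in log2 CPM per unit of score with 95% intervals, coloured by the parental germline in which the domain is methylated; filled points have an adjusted p under 0.05. Rasgrf1 at 0.50 lies apart from the others, which run from -0.33 (Zim1) to 0.13 (Slc22a18).

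Among the members that rose, Mcts2 is a retrogene in an intron of H13 that encodes a translation reinitiation factor. It was at 23.6, 18.5 and 19.2 CPM in wild-type testes 1 to 3, at 21.3, 19.7 and 18.1 CPM in the heterozygous testes and at 18.4, 22.6 and 25.8 CPM in the homozygous testes. The pair of testes with the highest scores had the highest values, and the slope was 0.091 (SE 0.0274, adjusted p = 0.0281), or 1.34-fold over the range of scores. Its host gene H13 overlaps it on the same strand and had a slope of 0.023 (adjusted p = 0.451, edgeR), so the split of reads between the pair is uncertain.

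Trappc9, a subunit of a vesicle tethering complex, was at 119, 115 and 97.1 CPM in wild-type testes 1 to 3, at 106, 119 and 91.9 CPM in the heterozygous testes and at 103, 108 and 135 CPM in the homozygous testes. Testes 3 of wild-type and Piwil4 WT/R264W, with the lowest scores, had the lowest values. The slope was 0.077 (SE 0.0243, adjusted p = 0.0345). Slc22a18, a membrane transporter gene of the Kcnq1 domain, had a larger slope of 0.13 with a larger error (SE 0.0466, adjusted p = 0.0644) and was higher at the highest than at the lowest score in 3 of 3 genotypes.

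Zim1, a maternally expressed zinc finger gene of the Peg3 domain, had the steepest negative slope of the members. It was at 0.558, 2.84 and 3.23 CPM in wild-type testes 1 to 3, at 2.15, 1.73 and 3.20 CPM in the heterozygous testes and at 1.39, 1.18 and 1.09 CPM in the homozygous testes. Testes 3 of wild-type and Piwil4 WT/R264W, with the lowest scores, were highest, and wild-type testis 1, with the highest score, was lowest. The slope was -0.33 (SE 0.0996, adjusted p = 0.0297), or 0.350-fold over the range of scores.

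The Peg3 domain holds 2 more members. Peg3, a zinc finger gene, and Usp29, a ubiquitin protease gene, are paternally expressed and start back to back, so their promoter windows overlap. The slope of Peg3 was -0.077 (95% interval -0.16 to 0.0011) and that of Usp29 was 0.11 (-0.010 to 0.24). Neither passed the test, the intervals overlap and the difference between them was not tested. The slope of Usp29 was -0.0012 on log2(FPKM + 0.1). The read assignment of Usp29 is also uncertain, since some of its counts were not whole numbers.

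Sgce, the epsilon-sarcoglycan gene, was at 8.24, 11.5 and 11.8 CPM in wild-type testes 1 to 3, at 10.8, 11.2 and 14.3 CPM in the heterozygous testes and at 12.4, 10.6 and 10.7 CPM in the homozygous testes. Its slope was -0.11 (SE 0.0327, adjusted p = 0.0272). Its neighbour Peg10, a retrotransposon-derived gene, had a slope of -0.063 (adjusted p = 0.256).

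Gnas was at 156, 207 and 228 CPM in wild-type testes 1 to 3, at 209, 207 and 215 CPM in the heterozygous testes and at 212, 218 and 188 CPM in the homozygous testes. The pair with the highest scores had the lowest values, and the slope was -0.076 (SE 0.0232, adjusted p = 0.0299), or 0.783-fold over the range. Several transcripts with different imprints share the Gnas locus, and their sum is what the count holds. Inpp5f, a phosphoinositide phosphatase gene, and Zrsr1, a splicing factor gene inside Commd1, also had negative slopes of -0.088 and -0.070 at unadjusted p of 0.0303 and 0.0321, with adjusted p of 0.0908 and 0.0947 in edgeR.

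The calls other than Rasgrf1 did not all hold when 1 testis was left out. In these fits the slope of Sgce ranged from -0.13 to -0.092 and that of Mcts2 from 0.075 to 0.10. That of Zim1 shrank to -0.16 and that of Gnas to -0.037 without wild-type testis 1. Without wild-type testis 1, or without wild-type testis 3, none of the 3 falling members was called and only Rasgrf1 was called as rising. In these fits 1987 of 15917 and 2363 of 16079 genes were called, against 4023 of 15771 with all testes. Without Piwil4 WT/R264W testis 3, only Gnas fell and only Rasgrf1 rose. Without Piwil4 R264W/R264W testis 1, Gnas and Zim1 fell, and without testis 3 of that genotype Zim1 and Sgce fell, and in both cases only Rasgrf1 rose. Without Piwil4 R264W/R264W testis 2, Trappc9 was not called. Without Piwil4 WT/R264W testis 1, 10 members fell and 4 rose, where 6062 of 15990 genes were called. The slope of Rasgrf1 was called in all 9 fits with 1 testis left out.

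**Figure D4:**
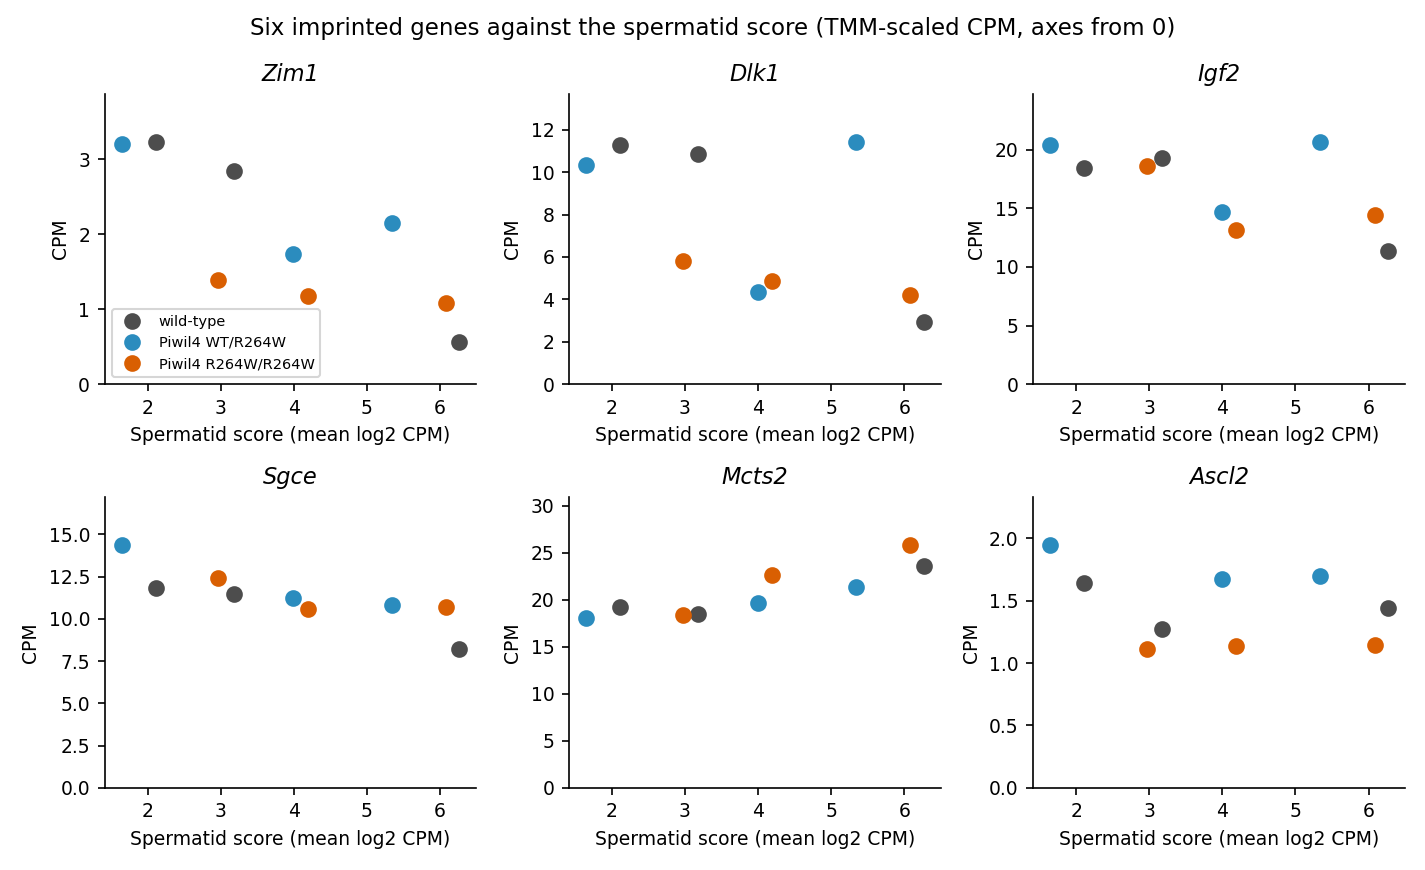
CPM of 6 imprinted genes against the spermatid score, one point per testis, coloured by genotype, with each vertical axis from 0. Zim1, Sgce, Dlk1 and Igf2 are lowest in wild-type testis 1, Mcts2 is highest in the 2 testes with the highest scores, and the 3 Piwil4 R264W/R264W points of Ascl2 lie below the other 6 at every score.

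Other imprinted genes were read from a list of 47, of which 38 had a row and 27 were tested. On the score 3 of the 27 rose and 3 fell, against 17.4% of all genes rising and 8.12% falling. The median slope of the 27 was -0.027. Atp10a, a phospholipid flippase gene, had a slope of 0.51 (SE 0.0385, adjusted p = 3.79e-07), close in size to that of Rasgrf1, and was at 90.2, 35.7 and 20.1 CPM in wild-type testes 1 to 3. Chrac1 and Pon2 rose with slopes of 0.10 and 0.071. Smoc2 (-0.15), Qpct (-0.11) and Axl (-0.099) fell, with adjusted p between 0.0186 and 0.0325 in edgeR.

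Among 24 genes that establish or keep imprints, 23 were tested, and 2 rose and 3 fell with the score. The shares over all genes were 17.4% rising and 8.12% falling. Dnmt3l, the cofactor of de novo methylation, had a slope of 0.63 (SE 0.0781, adjusted p = 4.8e-05) and was at 4.47, 1.42 and 0.819 CPM in wild-type testes 1 to 3. Zfp57, which protects imprints after fertilisation, rose by 0.26 per unit. Tet3 (-0.12), Dnmt3a (-0.10) and Piwil2 (-0.063) fell. Piwil4 (-0.025, adjusted p = 0.843) and Ctcfl, a germ-cell paralogue of CTCF (-0.051, adjusted p = 0.515), were not called by edgeR.

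The question of the design, whether the knock-in allele changes these genes, was put to each pair of genotypes. No member had an adjusted p under 0.05 in any of the 3 comparisons by edgeR or by DESeq2, and neither did any gene of the table by edgeR (0% of 15543, 15463 and 15413 genes). DESeq2 called 1, 5 and 0 genes of the table. At an unadjusted p under 0.05, 0 of 32 members differed between Piwil4 R264W/R264W and wild-type (1.26% of all genes), 3 of 33 between the homozygous and heterozygous testes (2.22%) and 0 of 31 between Piwil4 WT/R264W and wild-type (1.11%). With the score as a covariate the unadjusted counts were 2 of 32 (4.85% of all genes), 3 of 33 (2.93%) and 0 of 31 (2.02%). The 2 were Cd81, with a higher value, and Peg3, with a lower one. The 3 were Dlk1, Igf2r and Zim1, all with lower values, and Ascl2 and Cd81 were no longer among them. The comparisons share testes and are not independent. The median log2 fold change of the members was 0.0057, -0.057 and 0.065 in that order, and that of all genes -0.0050, 0.0062 and -0.019.

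**Figure D5:**
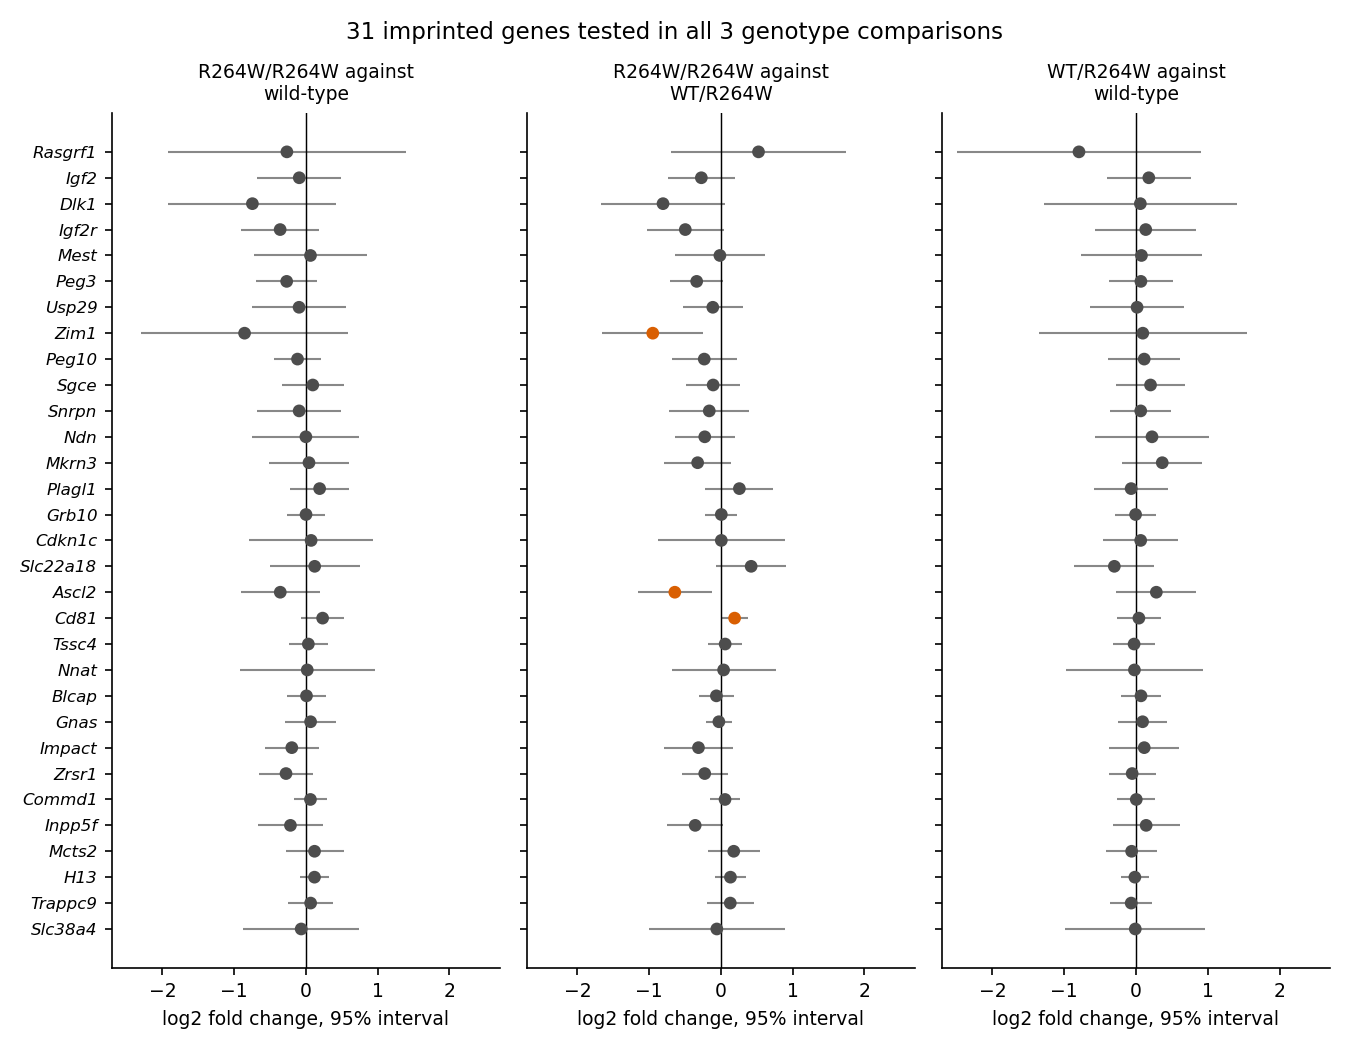
Log2 fold changes with 95% intervals of the 31 members tested in all 3 genotype comparisons; points in orange have an unadjusted p under 0.05. Zim1, Ascl2 and Cd81 are the only orange points, all in the comparison of Piwil4 R264W/R264W with Piwil4 WT/R264W, and the widest intervals belong to Rasgrf1, Zim1 and Dlk1.

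Between Piwil4 R264W/R264W and wild-type, the values of 3 members did not overlap (5.68% of all genes did not). Peg12 and H13 were higher in all 3 Piwil4 R264W/R264W testes, by 0.54 and 0.12 on the log2 scale, and Ascl2 was lower, with a change of -0.36. Their unadjusted p lay between 0.145 and 0.187 in edgeR. In FPKM the H13 values overlapped, with up to 36.2 in wild-type and from 35.7 in Piwil4 R264W/R264W testes, as did those of Ascl2. Peg12, a regulator of Wnt signalling, had 8, 9 and 8 counts in the wild-type against 13, 16 and 9 in homozygous testes.

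Ascl2, a basic helix-loop-helix factor of the Kcnq1 domain that is needed in the placenta, was at 1.44, 1.27 and 1.64 CPM in wild-type testes 1 to 3. It was at 1.70, 1.68 and 1.94 CPM in the heterozygous testes and at 1.12, 1.14 and 1.14 CPM in the homozygous testes. The 3 genotypes did not overlap, with the heterozygous testes highest and the homozygous lowest. These levels rest on 20 to 38 counts per testis, and in FPKM the wild-type values overlapped those of both other genotypes. The log2 fold change between the homozygous and heterozygous testes was -0.64 (SE 0.218, unadjusted p = 0.0226, adjusted p = 0.948, edgeR), with an exact two-sided permutation p of 0.1, the smallest that 3 against 3 allow. The unadjusted p was 0.125 in DESeq2 and 0.0604 with the score as a covariate, where the difference was -0.62. Its slope on the score was -0.028 (95% interval -0.18 to 0.13).

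Zim1 differed between the same genotypes by -0.95 (SE 0.296, unadjusted p = 0.0157, adjusted p = 0.948, edgeR), with no overlap. Its Piwil4 R264W/R264W testes averaged 1.22 ± 0.153 CPM and the Piwil4 WT/R264W testes 2.36 ± 0.759 (SD, n = 3). With the score as a covariate the difference was -0.83 (unadjusted p = 0.0200). Against wild-type, whose testis 1 had the lowest value of all, it was -0.85 with an interval from -2.29 to 0.59.

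Cd81 was at 60.1, 76.5 and 82.1 CPM in wild-type testes 1 to 3, at 76.6, 70.9 and 78.1 CPM in the heterozygous testes and at 81.4, 88.2 and 87.7 CPM in the homozygous testes. It was higher in Piwil4 R264W/R264W than in Piwil4 WT/R264W by 0.19 on the log2 scale (SE 0.0767, unadjusted p = 0.0429, adjusted p = 0.948, edgeR), with no overlap. With the score as a covariate the value was 0.19 (unadjusted p = 0.0556, edgeR), and with libraries scaled by their totals 0.16 (unadjusted p = 0.120). Slc22a18 also did not overlap, at 0.42 higher (unadjusted p = 0.0810). In this comparison 4 members did not overlap and 7.16% of all genes did not. In the comparison of Piwil4 WT/R264W with wild-type Ascl2 was the 1 member without overlap among the 31 tested, against 5.32% of all genes. Kcnk9, filtered out on low counts, did not overlap there either, at 6, 3 and 2 counts in wild-type against 0, 1 and 0.

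Which members passed the unadjusted threshold depended on the testes. Between the homozygous and heterozygous testes their number was 8, all lower, without Piwil4 WT/R264W testis 2, where 1145 of 15819 genes passed. With all testes 343 of 15463 genes passed. The number of members was 0 without Piwil4 WT/R264W testis 3 (222 of 15820 genes passed) or without Piwil4 R264W/R264W testis 2 (163 of 15654). It was 1 (Zim1) without Piwil4 R264W/R264W testis 3 (187 of 15741). Against wild-type, 4 members (Dlk1, Igf2r, Peg3 and Zim1) were lower in Piwil4 R264W/R264W when wild-type testis 1 was left out, where 1164 of 15655 genes passed. Between Piwil4 WT/R264W and wild-type, Slc22a18 passed without wild-type testis 3, where 244 of 15749 genes passed.

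Igf2r, the receptor that clears IGF2, and Peg3 had lower means in Piwil4 R264W/R264W testes and did not pass the test. Igf2r averaged 45.7 ± 13.4 CPM in wild-type, 50.4 ± 15.5 in Piwil4 WT/R264W and 35.7 ± 3.76 in Piwil4 R264W/R264W testes. The corresponding values of Peg3 were 41.7 ± 8.01, 43.8 ± 6.92 and 34.6 ± 4.67 CPM (SD, n = 3). The log2 fold changes against Piwil4 WT/R264W were -0.50 and -0.34, with unadjusted p of 0.0655 and 0.0669 in edgeR.

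Some members varied little. Tssc4 spanned 1.18-fold over the 9 testes, Commd1 1.19-fold, Blcap 1.22-fold, Grb10, the growth factor receptor adaptor, 1.25-fold and H13 1.27-fold. For Grb10 the 95% interval against wild-type was -0.26 to 0.26 on the log2 scale for Piwil4 R264W/R264W. In the Prader-Willi domain, Magel2 and Peg12 were low, as given above. Ndn, a growth suppressor, was between 5.49 and 13.8 CPM and Mkrn3, a ubiquitin ligase gene, between 2.65 and 5.20, with slopes of -0.089 and -0.065 that did not pass the test. Snrpn, a splicing protein gene that shares its transcript with Snurf in the annotation, had a slope of -0.017 (adjusted p = 0.856, edgeR).

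Markers of other cells moved with the testes too. Between the homozygous and heterozygous testes, 2 of 10 Leydig cell genes were higher and 4 of 17 spermatogonial genes lower at an unadjusted p under 0.05. Of all 15463 genes tested, 181 were higher and 162 lower at that threshold. Between Piwil4 R264W/R264W and wild-type, 0 of 10 Leydig and 0 of 16 spermatogonial genes passed it, where 196 of all 15543 genes did. Of 15 Sertoli cell genes, 1 was lower in the homozygous than in the heterozygous testes and 1 was higher than in wild-type. The 10 Leydig genes summed to between 366 and 525 CPM in Piwil4 R264W/R264W testes, between 246 and 352 in Piwil4 WT/R264W and between 240 and 504 in wild-type. The 18 spermatogonial genes summed to between 1167 and 1262, 1199 and 1272, and 1188 and 1254 CPM. Over all genes tested, 17.4% rose with the score and 8.12% fell, and no list was tested against these shares. With the score, 4 of 15 Sertoli cell genes fell and 1 rose, and 2 of 10 Leydig genes rose. Of the germ cell lists, 12 of 15 pachytene spermatocyte genes rose and 0 fell, 7 of 13 early meiotic genes fell and 1 rose, and 3 of 16 spermatogonial genes fell and 1 rose. Of 10 interstitial progenitor and fibroblast genes 2 fell, and 6 had a negative slope at an unadjusted p under 0.05, as did 2702 of all 15771 genes. The early meiotic genes summed to between 3142 and 3832 CPM in wild-type, 3143 and 3907 in Piwil4 WT/R264W and 2821 and 3703 in Piwil4 R264W/R264W testes. The interstitial genes summed to between 362 and 880, 469 and 659, and 622 and 734 CPM in that order. No gene of these lists was at 0 in all testes. Their part in the levels of Ascl2, Zim1, Cd81 or the slopes was not tested. Of 9 epididymal genes 2 were at 0 in all testes, and their sum was between 4.94 and 14.7 CPM in the wild-type and Piwil4 WT/R264W testes and up to 67.2 in a Piwil4 R264W/R264W testis.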

How the data were processed

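Whole testes at 3 weeks of age were sequenced by the authors in 9 samples with a poly(A) mRNA kit whose strand setting is not given in the sources used here. The submitters' processing notes name fastp 0.18.0, StringTie 1.3.1, DESeq2 and the mm39 build; the aligner is not given in the sources used here. For each of 22337 genes and each testis the authors deposited an estimated count, not scaled for library size (89.2% whole numbers), and an FPKM value rounded by the authors. Gene identifiers were matched to GENCODE vM21 (22232 matched, all 39 members among them), which is on GRCm38, so gene coordinates are not given and the promoter windows are those of RefSeq for GRCm38.p6. Without strand, members that overlap another gene (Nnat with Blcap, Zrsr1 with Commd1, Mcts2 with H13, Snrpn with Snurf, Igf2 with Gm49394, Mest with Copg2, Tssc4 with Trpm5, Igf2r and Kcnq1 with antisense RNAs) have uncertain values. The same holds, among others, for Gnas with Gm20721 and Nespas, Trappc9 with Peg13 and Gm49460, Cd81 with R74862 and Usp29 with Zim3.

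The labels gave each sample's genotype and replicate. Counts were rounded and fitted in R 4.3.3 with edgeR 4.0.16 (filterByExpr, TMM, quasi-likelihood test, Benjamini-Hochberg adjustment over all genes tested), for each pair of genotypes (6 testes) and for the slope on the spermatid score with a genotype term (9 testes). CPM is TMM-scaled, with a prior count of 1 for log2 CPM in the score. The genotype test was given a threshold of 0.05 on p and on adjusted p, with an exact permutation test (two-sided) for single genes. Alternatives were DESeq2 1.42.0, its size factors, library totals, no filter, at least 10 counts in every library, limma 3.58.1 on log2(FPKM + 0.1) and log2(FPKM + 1) for a mean FPKM of at least 0.5, all 9 testes together, a block for replicate number, the score as a covariate, other scores and leaving out testes. The fits were tested on simulated counts. The members, the gene lists, the rule for named genes and the tests were chosen with earlier results of these data known. By that rule values in every testis are given for the members of the domains methylated in the paternal germline, for members past an unadjusted p under 0.05 in a genotype comparison and for members with a called slope; of the other lists, the 3 steepest called slopes each way and Piwil4, Dnmt3l and Ctcfl are named. Intervals and floors cover counting error or the spread between testes only.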

Additional observations from a re-analysis of the deposited data

How the results depend on the processing

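The genotype comparisons called 0 members at an adjusted p under 0.05 under every alternative run. Members with an unadjusted p under 0.05 numbered 0 for Piwil4 R264W/R264W against wild-type, 2 with the score as a covariate (Cd81 higher, Peg3 lower) and 0 to 4 when 1 testis was left out. Against Piwil4 WT/R264W the 3 became 4 with DESeq2, namely Cd81, Dlk1, Igf2r and Zim1, of which 1 was higher and 3 lower. With DESeq2, 290 of 19265 genes passed. With library totals the 3 became 2 (Ascl2 and Zim1). They became 1 with limma on FPKM + 0.1 or + 1, with all 9 testes in one fit and with the replicate block. When 1 testis was left out there were 0 to 8. For Piwil4 WT/R264W against wild-type the 0 became 1 without a filter on low counts (Kcnk9, 6, 3 and 2 counts against 0, 1 and 0) and 0 to 1 when 1 testis was left out. The Rasgrf1 fold change against wild-type of -0.26 turned to 0.080 with limma on FPKM + 0.1 and ran from -0.76 to 0.75 when 1 testis was left out, and that of Piwil4 WT/R264W ran from -1.20 to 0.23. Its slope was not called without the pair of testes farthest from the median score (0.40) or on the sign-reversed Sertoli score (5.77 per unit). A positive slope on that reversed score is a rise as Sertoli genes fall. The adjusted p of the Rasgrf1 slope ran from 1.5e-06 to 0.142 over 21 alternatives.

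Of members with a called slope, 5 fell and 1 rose with library totals and with limma on FPKM + 0.1, 1 rose with limma on FPKM + 1, 7 fell on the pachytene score, and 0 fell with the replicate block. On the sign-reversed Sertoli score 0 fell and 0 rose. There 0 of all 15771 genes were called, so that count says nothing particular to the members. Without the farthest pair 0 fell and 0 rose, where 1030 of 15899 genes were called. Leaving out 1 testis gave 0 to 10 falling and 1 to 4 rising. Among uncalled slopes, that of Commd1 turned negative with library totals (-0.026), limma on FPKM + 0.1 (-0.028) and + 1 (-0.027), the block (-0.0036) and without the farthest pair (-0.035), and ran from -0.040 to 0.018 when 1 testis was left out. H13 turned to -0.0050 with library totals, Usp29 to -0.0012 and -0.0018 with limma on FPKM + 0.1 and + 1, and Dlk1 to 0.037 without the farthest pair, while Dlk1 was called as falling with limma on FPKM + 0.1, on the pachytene score and without Piwil4 WT/R264W testis 1. The cause was not tested.

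The correlation of same-numbered testes' deviations ran from -0.73 to 0.78, and that of differently numbered testes from -0.81 to 0.80. Wild-type testis 1 and Piwil4 R264W/R264W testis 3, which had the highest spermatid scores, gave the 0.80. Whether the deviations hold differences in score was not tested, and they do not show whether the replicate numbers pair the testes. With 3 testes per genotype, differences smaller than the printed intervals could not be seen, and Rtl1, Magel2, Kcnk9, Dio3, Ddc and Phlda2 did not pass the filter on low counts and were tested only without it.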
